A study of Danio rerio with 9 samples.

Results

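The genes described here are FBXO32, a muscle ubiquitin ligase, and the genes of muscle protein breakdown, fasting and insulin response that are usually read together with it. They were chosen by name, as the rows of the expression table whose symbol, with case and a paralog letter ignored, was fbxo32, trim63, igfbp1, pck1, irs2 or foxo1. This gave 10 genes of the 32520 in the table, of which 27442 were above 0 in any library. The values came from zebrafish (Danio rerio) larvae of the wild-type AB strain, taken whole at an age of 5 days, with 3 pools of larvae in each of 3 groups. SBMO larvae had been microinjected into the yolk with sialylated oligosaccharides purified from bovine milk, SHMO larvae had been microinjected with those purified from human milk, and Ctrl larvae were not microinjected. Both injections gave 4.6 nL of a 100 mmol/L solution at 4.7 hours post fertilization (hpf). None of the 9 libraries came from saline-injected larvae, and the injection and the oligosaccharides therefore cannot be told apart in a difference from Ctrl.

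FBXO32, also called atrogin-1, and TRIM63, also called MuRF1, are ubiquitin ligases of striated muscle that mark proteins for degradation by the proteasome. In mammals both are induced in wasting muscle, where their transcription is driven by FoxO factors such as FOXO1, and insulin and IGF signaling hold these factors outside the nucleus. The same factors act in the fasting liver, where they raise PCK1, which makes phosphoenolpyruvate for gluconeogenesis, IGFBP1, a secreted protein that binds IGFs, and IRS2, an adaptor of the insulin receptor.

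All values are TPM, an abundance of transcripts that is scaled to gene length and to the library total, so that genes can be compared with one another but no sequencing depth is kept. A gene counts as called where limma gave an adjusted p (Benjamini-Hochberg) no greater than 0.05 and a log2 fold change, log2(FC), no smaller than 0.58 in size, on the scale of log2(scaled TPM + 0.1). Tests were run on the 19051 genes whose mean reached 1 TPM, and 9 of the 10 genes passed this filter. The 10th, one of the 2 genes named FOXO1, is given by its values only. FBXO32 had drawn attention by its values in these same libraries, so its levels are a description and no test of it is given, which leaves 8 genes with tests. The names table gives the same symbol to both IRS2 genes and to both FOXO1 genes, so these are told apart by their Ensembl identifiers.

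Each library had 24452 to 25305 genes above 0, and libraries of 1 group correlated at 0.933 to 0.976. On the first principal component, with 40.5% of the variance, SHMO replicate 1 stood at 21.1, between the other SHMO pools (-36.0 and -34.0) and the Ctrl pools (46.4 to 79.1). Markers of skeletal muscle, liver, intestine and pancreas were all present in the whole larvae, and none of the marker genes found in the table was at 0 in every library. The 45 muscle markers summed to 113473 to 149669 TPM in SBMO pools, 133780 to 138904 TPM in SHMO pools and 114472 to 134903 TPM in Ctrl pools. The 24 liver markers summed to 3300 to 5983 TPM in SBMO pools, below 7537 to 12428 TPM in SHMO pools and 8386 to 11430 TPM in Ctrl pools. In whole larvae, fewer cells of a type and less RNA per cell cannot be told apart.

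FBXO32 (ENSDARG00000040277) was low in every SHMO pool. It stood at 14.3, 57.1 and 35.9 TPM in SBMO replicates 1, 2 and 3. The SHMO pools had 2.25, 2.04 and 3.14 TPM, and the Ctrl pools had 42.4, 38.6 and 63.2 TPM. The SHMO pools lay below all 6 other pools, while the SBMO and Ctrl pools overlapped, with SBMO replicates 1 and 3 below every Ctrl pool and SBMO replicate 2 between them. The means were 35.8 ± 21.4 TPM in SBMO, 2.48 ± 0.584 TPM in SHMO and 48.1 ± 13.2 TPM in Ctrl larvae (SD, n = 3 each). On the log scale SHMO larvae had 19.4-fold less than Ctrl larvae (log2(FC) -4.28, standard error 0.45), and SBMO larvae had 12.9-fold more than SHMO larvae (log2(FC) 3.69, standard error 0.45). These standard errors come from 1 spread shared by the 3 groups. The SD of the log2 values was 1.08 in SBMO, 0.33 in SHMO and 0.39 in Ctrl pools. The standard errors are no test, since FBXO32 had drawn attention by its values. SBMO stood at a log2(FC) of -0.59 from Ctrl, and with their overlap these pools do not fix the order of the SBMO and Ctrl levels. Without SBMO replicate 1 that difference was -0.01, and the one from SHMO was 4.27.

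**Figure D1:**
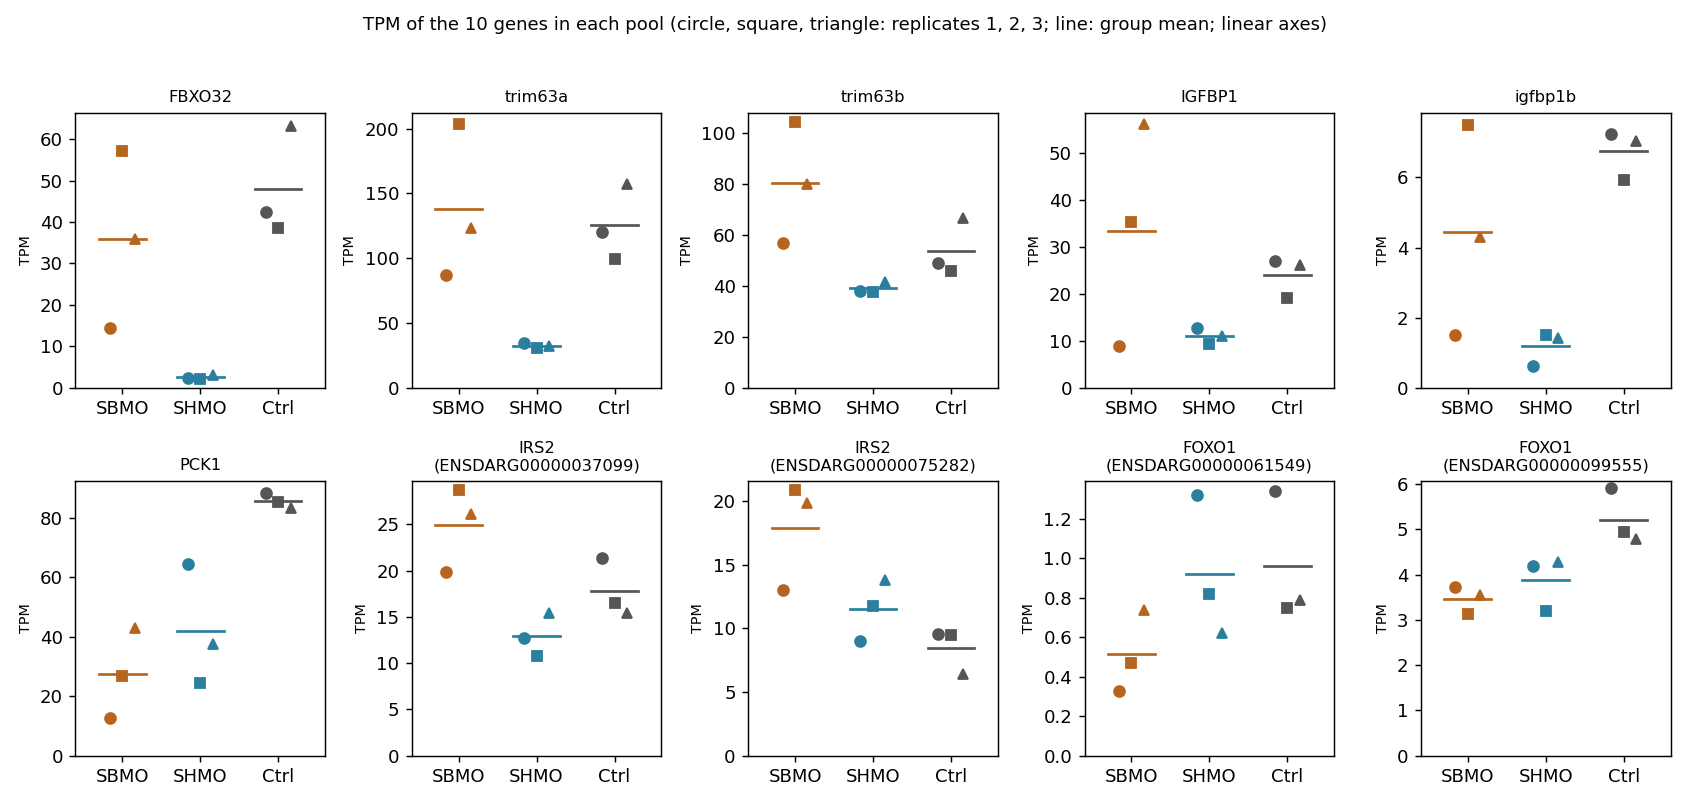
TPM of the 10 genes (vertical axes, linear and starting at 0) in the 3 pools of each group, SBMO, SHMO and Ctrl from left to right, with replicates 1, 2 and 3 as a circle, a square and a triangle and the group mean as a line. FBXO32 and trim63a are low in all 3 SHMO pools (2.04 to 3.14 and 30.8 to 34.3 TPM), while PCK1 is high in all 3 Ctrl pools (83.2 to 88.5 TPM).

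The first of the pair of TRIM63 genes, trim63a (ENSDARG00000028027), was also low in SHMO larvae. It had 87.4, 203 and 123 TPM in SBMO pools, 34.3, 30.8 and 32.4 TPM in SHMO pools, and 120, 99.7 and 157 TPM in Ctrl pools. No SHMO pool reached the lowest pool of either other group, and SBMO and Ctrl overlapped. The level was 3.98-fold lower in SHMO than in Ctrl larvae (log2(FC) -1.99, standard error 0.30, adjusted p = 0.0051 in limma). It was 4.23-fold higher in SBMO than in SHMO larvae (log2(FC) 2.08, standard error 0.30, adjusted p = 0.00667). Both calls held under each of the 18 alternatives that gave a test, with adjusted p values of at most 0.0267 and 0.0299. SBMO and Ctrl larvae differed by 0.09 on the log2 scale (95% interval -0.57 to 0.75, adjusted p = 0.847).

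The other copy, trim63b (ENSDARG00000086685), varied less. It had 56.7, 105 and 79.9 TPM in SBMO pools, 37.9, 37.7 and 41.4 TPM in SHMO pools, and 48.8, 46.0 and 66.6 TPM in Ctrl pools. The SHMO pools were again below all others, and SBMO and Ctrl pools overlapped. It was 2.12-fold higher in SBMO than in SHMO larvae (log2(FC) 1.08, standard error 0.24, adjusted p = 0.0365). The log2(FC) of SHMO from Ctrl was -0.51 (adjusted p = 0.192) and that of SBMO from Ctrl 0.57 (adjusted p = 0.111), and neither was called. The SBMO against SHMO call is near the threshold, and it was lost when any pool but SBMO replicate 1 or Ctrl replicate 3 was left out, with an adjusted p of up to 0.125. Without SBMO replicate 1 the difference of SBMO from Ctrl was called (log2(FC) 0.83, adjusted p = 0.0347).

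Of the 45 muscle markers, 7 were called lower in SBMO against Ctrl, 4 lower in SHMO against Ctrl and 1 lower in SBMO against SHMO, with medians of -0.07, -0.06 and -0.04 on the log2 scale. These are 15.6%, 8.89% and 2.22% of the markers, beside 11.5%, 5.32% and 2.74% of all genes tested called lower. Scaled to the muscle markers in place of all genes, an alternative chosen after the data were seen, SHMO stood at a log2(FC) of -4.36 from Ctrl for FBXO32, -2.07 for trim63a and -0.59 for trim63b. On the same scale SBMO stood at 3.63, 2.02 and 1.02 from SHMO and at -0.73, -0.05 and 0.43 from Ctrl for these 3 genes. This scaling divides every gene of a library by the same number, so the shifts follow from the marker sums. In SBMO larvae the 3 ligase genes and the muscle markers had the same order of pools, since the markers summed to 113473, 149669 and 140719 TPM in replicates 1, 2 and 3. The orders differed in the other groups. In SHMO larvae the markers were highest in replicate 2, where the 3 ligase genes were lowest. In Ctrl larvae the markers were highest in replicate 1 and the 3 ligase genes in replicate 3. The part of the marker sums in the ligase values was not tested.

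IGFBP1 (ENSDARG00000099351) had 8.79, 35.2 and 56.1 TPM in SBMO pools, 12.7, 9.28 and 10.9 TPM in SHMO pools, and 26.9, 19.03 and 26.2 TPM in Ctrl pools. The SHMO pools lay below the Ctrl pools, and the SBMO pools spanned both groups. None of the 3 comparisons was called. The log2(FC) was 0.14 for SBMO against Ctrl (95% interval -1.05 to 1.34, adjusted p = 0.864), -1.18 for SHMO against Ctrl (95% interval -2.38 to 0.01, adjusted p = 0.174) and 1.33 for SBMO against SHMO (95% interval 0.13 to 2.52, adjusted p = 0.187). The 3 groups share 1 estimate of the spread in the model, and the SD of the log2 values was 1.42 in SBMO, 0.23 in SHMO and 0.20 in Ctrl pools. SBMO replicate 1, the lowest of the 9 pools, therefore weighed also on SHMO against Ctrl, though it is in neither group. With only SHMO and Ctrl in the model that difference was called (log2(FC) -1.18, standard error 0.18, adjusted p = 0.00656 in limma). Without SBMO replicate 1 the 3 values were 0.95 (adjusted p = 0.0235), -1.18 (adjusted p = 0.00623) and 2.13 (adjusted p = 0.00235), all called. The standard error of the second value was then 0.19 in place of 0.54.

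Its paralog igfbp1b (ENSDARG00000038666) was expressed at a low level. It had 1.5, 7.49 and 4.30 TPM in SBMO pools, 0.630, 1.51 and 1.42 TPM in SHMO pools, and 7.25, 5.93 and 7.05 TPM in Ctrl pools. Every SHMO pool was under every Ctrl pool, and SBMO replicate 1 was at the level of the SHMO pools. The level was 5.86-fold lower in SHMO than in Ctrl larvae (log2(FC) -2.55, standard error 0.52, adjusted p = 0.0178). This call was lost without SHMO replicate 3 (adjusted p = 0.0526), Ctrl replicate 1 (adjusted p = 0.054) or Ctrl replicate 3 (adjusted p = 0.0609). SBMO larvae were not called against either group, with a log2(FC) of -0.84 from Ctrl (adjusted p = 0.248) and 1.71 from SHMO (adjusted p = 0.0887). Without SBMO replicate 1 the difference from SHMO was 2.36 and was called (adjusted p = 0.0138).

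PCK1 (ENSDARG00000013522), the cytosolic phosphoenolpyruvate carboxykinase, was arranged otherwise than the ligases, with the injected pools of both kinds below the Ctrl pools. It had 12.8, 26.7 and 42.9 TPM in SBMO pools, 64.5, 24.4 and 37.5 TPM in SHMO pools, and 88.5, 85.2 and 83.2 TPM in Ctrl pools. The Ctrl pools lay close together and above all 6 injected pools, and the SBMO and SHMO pools overlapped. The level was 3.45-fold lower in SBMO than in Ctrl larvae (log2(FC) -1.79, standard error 0.43, adjusted p = 0.0204), a call lost without SBMO replicate 2 (adjusted p = 0.0577) or Ctrl replicate 3 (adjusted p = 0.0624). SHMO stood at -1.20 from Ctrl (adjusted p = 0.10004) and was not called. It was called without SHMO replicate 1 (log2(FC) -1.56, adjusted p = 0.041) and without SBMO replicate 1 (adjusted p = 0.0371). SBMO stood at -0.58 from SHMO (95% interval -1.54 to 0.37, adjusted p = 0.459).

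Liver markers were lower along with PCK1 in SBMO larvae. In SHMO larvae their sum averaged 9805 TPM against 9431 TPM in Ctrl larvae, of which apoa2 alone had 5253 and 3943 TPM. The markers had a median log2(FC) of -0.26 for SHMO against Ctrl and -1.31 for SBMO against Ctrl, beside 0.04 and 0.05 over all genes tested. They summed to 3300, 4081 and 5983 TPM in SBMO replicates 1, 2 and 3 and to 12428, 7537 and 9448 TPM in the SHMO replicates, the same order of pools as PCK1 in these groups. In the Ctrl replicates they summed to 8477, 8386 and 11430 TPM, which is not the order of PCK1. Of 23 liver markers tested, 18 (78.3%) were called lower in SBMO than in Ctrl larvae and 1 (4.35%) was called lower in SHMO than in Ctrl larvae. In SBMO against SHMO 4 (17.4%) were called lower. Of all genes tested, 11.5%, 5.32% and 2.74% were called lower in these 3 comparisons. Scaled to the liver markers, an alternative also chosen after the data were seen, the log2(FC) of PCK1 was -0.70 for SBMO against Ctrl, -1.18 for SHMO against Ctrl and 0.48 for SBMO against SHMO, the last with its sign turned. For IGFBP1 on that scale it was 1.23 for SBMO against Ctrl, -1.16 for SHMO against Ctrl and 2.39 for SBMO against SHMO. For igfbp1b it was 0.23, -2.48 and 2.71 in the same 3 comparisons, the first with its sign turned. These values carry no test. This scaling divides every gene of a library by the same number, so the shifts and turned signs follow from the marker sums, whatever the gene. The differences of SHMO from Ctrl moved little with it while those of SBMO moved toward higher values. On this scale 70.6% of all genes were called in SBMO against Ctrl, beside 19.8% on the main scale. The scale is the sum of the markers, so it follows those with the highest TPM.

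**Figure D2:**
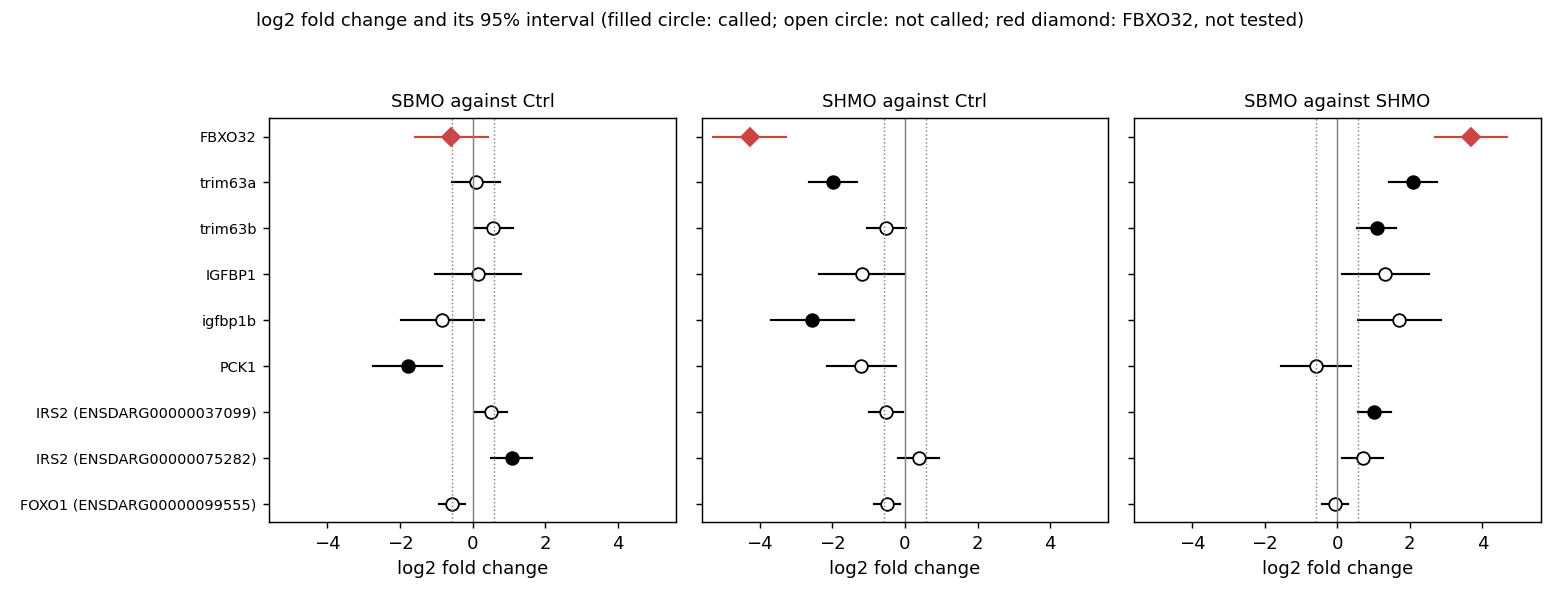
Fitted log2 fold change (horizontal axis) with its 95% interval for FBXO32 and the 8 genes tested, in the 3 comparisons. Filled circles were called, open circles were not, the diamond is FBXO32 with no test, and dotted lines mark a size of 0.58. All intervals rest on a spread shared by the 3 groups, and those of FBXO32 are no test. The ligases and both IGFBP1 genes lie left of 0 in SHMO against Ctrl and right of 0 in SBMO against SHMO.

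Both IRS2 genes had their highest mean in SBMO larvae. ENSDARG00000037099 had 19.8, 28.8 and 26.2 TPM in SBMO pools, 12.7, 10.8 and 15.4 TPM in SHMO pools, and 21.4, 16.5 and 15.4 TPM in Ctrl pools. Every SBMO pool was above every SHMO pool, and SBMO overlapped with Ctrl. It was 2.03-fold higher in SBMO than in SHMO larvae (log2(FC) 1.02, standard error 0.21, adjusted p = 0.0257). The call was lost without SBMO replicate 2 (adjusted p = 0.114), SHMO replicate 1 (adjusted p = 0.0828) or SHMO replicate 2 (adjusted p = 0.0716). It was also lost with only the 2 groups in the model (adjusted p = 0.0664) and with a replicate block (adjusted p = 0.0531). Against Ctrl, SBMO stood at 0.50 (adjusted p = 0.10004) and SHMO at -0.52 (adjusted p = 0.131), and neither was called, although SBMO was called without SBMO replicate 1 (log2(FC) 0.68, adjusted p = 0.0482).

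The second IRS2 gene, ENSDARG00000075282, differed in another comparison. It had 13.03, 20.8 and 19.8 TPM in SBMO pools, 9.01, 11.8 and 13.8 TPM in SHMO pools, and 9.55, 9.43 and 6.43 TPM in Ctrl pools. All SBMO pools were above all Ctrl pools, and SHMO pools overlapped with both. It was 2.11-fold higher in SBMO than in Ctrl larvae (log2(FC) 1.08, standard error 0.25, adjusted p = 0.0193), a call lost without SBMO replicate 2 (adjusted p = 0.0741) or Ctrl replicate 3 (adjusted p = 0.0653). SHMO stood at 0.37 from Ctrl (adjusted p = 0.347) and SBMO at 0.71 from SHMO (adjusted p = 0.141), with no call.

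The transcription factor FOXO1 was expressed at low levels. ENSDARG00000099555 had 3.72, 3.12 and 3.55 TPM in SBMO pools, 4.19, 3.19 and 4.27 TPM in SHMO pools, and 5.92, 4.93 and 4.79 TPM in Ctrl pools. The Ctrl pools were above all injected pools. SBMO stood at -0.56 from Ctrl (standard error 0.16, adjusted p = 0.0356), which passes the p but not the size of 0.58, so it was not called. SHMO stood at -0.49 from Ctrl (adjusted p = 0.0824) and SBMO at -0.07 from SHMO (95% interval -0.43 to 0.29, adjusted p = 0.836). The other gene, ENSDARG00000061549, was below the filter, with 0.330, 0.470 and 0.740 TPM in SBMO pools, 1.32, 0.820 and 0.620 TPM in SHMO pools, and 1.34, 0.750 and 0.790 TPM in Ctrl pools. Its highest SBMO pool was just under its lowest Ctrl pool, and the SHMO pools overlapped with both. FoxO proteins are controlled mainly by phosphorylation and by where they lie in the cell, neither of which was measured here.

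Among the 8 genes, 2 were called in SBMO against Ctrl, 1 higher and 1 lower, where 19.8% of all genes tested were called (8.31% higher and 11.5% lower), so this count lies near the background. In SHMO against Ctrl 2 were called, both lower, beside 8.9% of all genes (3.58% higher and 5.32% lower). In SBMO against SHMO 3 were called, all higher, beside 4.57% of all genes (1.83% higher and 2.74% lower). On the scaled values the SBMO and Ctrl pools did not overlap for 3 of the 8 genes, 1 higher and 2 lower, beside 44.4% of all genes (23.5% higher and 20.9% lower). The SHMO pools lay below the Ctrl pools with no overlap for 7 of the 8, beside 34.3% of all genes apart in either direction (17.3% higher and 17% lower). Among them IRS2 ENSDARG00000037099 overlapped before scaling, at 15.42 TPM in SHMO replicate 3 and 15.41 TPM in Ctrl replicate 3. The SBMO pools lay above the SHMO pools with no overlap for 4 of the 8, beside 28.8% of all genes apart in either direction (14.3% higher and 14.5% lower). Of these, igfbp1b overlapped before scaling, at 1.5 TPM in SBMO replicate 1 and 1.51 TPM in SHMO replicate 2. The median log2(FC) of the 8 genes was 0.12 for SBMO against Ctrl, -0.85 for SHMO against Ctrl and 1.05 for SBMO against SHMO, beside 0.05, 0.04 and 0.02 over all genes tested. Each pair of these comparisons shares the pools of 1 group, so they are not independent of one another. Left out in turn, single pools gave 0 to 5, 1 to 4 and 1 to 5 calls in these 3 comparisons, and trim63a was called in each of the last 2 every time.

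Among SBMO pools 9 of the 10 genes had an SD above the median of all genes tested, the exception being FOXO1 (ENSDARG00000099555). In SHMO pools 8 of the 10 did so, and in Ctrl pools 5. The SBMO group had the widest spread of the 3 groups in 9 of the 10, against 35.9% of all genes tested. The median SD of the log2 values of the 10 genes was 0.60 in SBMO, 0.30 in SHMO and 0.25 in Ctrl pools, and over all genes tested it was 0.22 in SBMO, 0.21 in SHMO and 0.23 in Ctrl pools. SBMO replicate 1 was the lowest SBMO pool in 9 of the 10 genes, against 35.2% of all genes tested, and the exception was the same FOXO1 gene. These genes are not independent of one another. The 10 include FBXO32, which had drawn attention by its values, and FOXO1 ENSDARG00000061549, which was below the filter that all genes tested had passed.

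Over the 9 libraries, the 8 genes outside the members whose scaled log2 values were most like those of FBXO32 included regulators of muscle, glycogen and stress. Pearson's r was 0.995 for CHAC1, which degrades glutathione, 0.991 for KLHL38 (ENSDARG00000040278), a kelch protein, and 0.990 for ppp1r3c2a, a subunit that directs a phosphatase to glycogen. It was 0.986 for spink2.1, a protease inhibitor of the Kazal type, 0.984 for rasd1, a small GTPase induced by dexamethasone in mammals, and 0.981 for STYXL2, a phosphatase-like protein of muscle. It was 0.981 for DUSP6, which dephosphorylates ERK, and 0.977 for CALCOCO1 (ENSDARG00000016391), an autophagy receptor. Among 19050 genes trim63a ranked 8th (r = 0.978), igfbp1b ranked 70th (r = 0.928), and IGFBP1 (r = 0.783), trim63b (r = 0.775) and IRS2 ENSDARG00000037099 (r = 0.773) ranked 666th, 709th and 721st. FOXO1 ENSDARG00000099555 (r = 0.43), PCK1 (r = 0.34) and IRS2 ENSDARG00000075282 (r = 0.13) were less like it over the 9 libraries.

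These correlations run over 3 groups, of which SHMO is low for FBXO32. Within the 6 SBMO and Ctrl pools r with FBXO32 was 0.98 for CHAC1, 0.951 for KLHL38, 0.944 for ppp1r3c2a, 0.96 for igfbp1b, 0.831 for trim63a, 0.706 for IGFBP1 and 0.68 for PCK1. It was 0.426 for trim63b, 0.252 for FOXO1 ENSDARG00000099555, 0.123 for IRS2 ENSDARG00000037099 and -0.0999 for IRS2 ENSDARG00000075282. SBMO replicate 1 was the lowest of the 6 pools for FBXO32 (14.3 TPM) and for every gene given here with an r of at least 0.68. Those r values therefore lean on that pool, and r without it was not computed. CHAC1 had 311, 496 and 462 TPM in SBMO pools, 191, 175 and 182 TPM in SHMO pools, and 505, 420 and 501 TPM in Ctrl pools. KLHL38 had 10.4, 20.8 and 14.6 TPM in SBMO pools, 1.63, 1.73 and 2.02 TPM in SHMO pools, and 20.7, 15.1 and 19.9 TPM in Ctrl pools. Both were lowest in the SHMO pools with no overlap, and in both SBMO replicate 1 was the lowest SBMO pool. In the RefSeq annotation of the assembly GRCz12tu, which is not the build of these values, the coding neighbours of fbxo32 on chromosome 16 are klhl38b and prelid3a, and no gene overlaps it. The names table lists 2 genes as KLHL38 and does not say which of them is klhl38b.

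**Figure D3:**
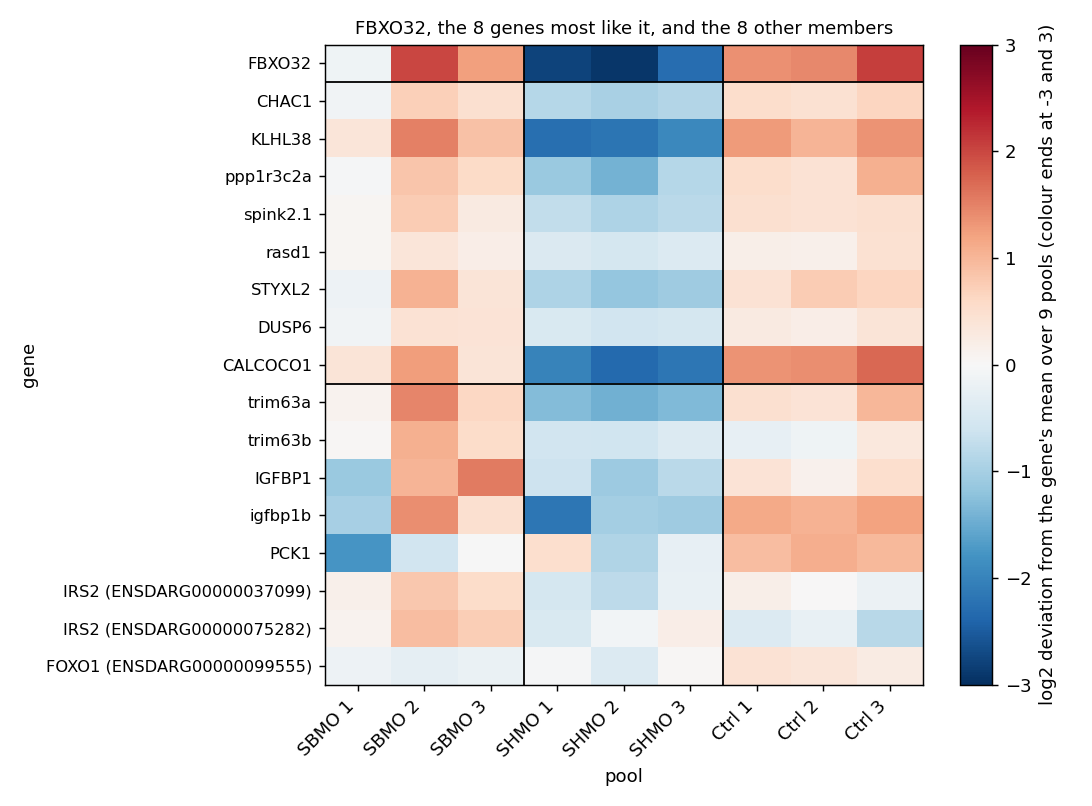
Deviation of each pool's log2 value from the gene's mean over the 9 pools (colour, from -3 to 3) for FBXO32, the 8 genes most like it and the 8 genes tested, with SBMO, SHMO and Ctrl replicates as columns. The most like genes were picked for this pattern. SBMO 1 is paler or bluer than the other SBMO pools in the ligase, IGFBP1 and PCK1 rows.

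Genes of the same pathways were read from lists compiled by name, each without the 10 genes above. The share of each list that was called is set beside that of all genes tested, which was 19.8% in SBMO against Ctrl, 8.9% in SHMO against Ctrl and 4.57% in SBMO against SHMO. Among 19 other muscle ubiquitin ligases and regulators of muscle mass, 0 were called in SHMO against Ctrl and 0 in SBMO against SHMO, with medians of -0.27 and -0.02 on the log2 scale beside 0.04 and 0.02 over all genes tested. In limma 1 higher and 5 lower had an unadjusted p under 0.05 in SHMO against Ctrl, and 3 higher and 2 lower in SBMO against SHMO. In SBMO against Ctrl 1 was called higher and 2 lower, 15.8% of the list beside 19.8% of all genes. Myostatin, an inhibitor of muscle growth, was the one higher (mstnb, 4.02 ± 0.636 TPM in SBMO and 2.38 ± 0.42 TPM in Ctrl larvae, log2(FC) 0.75, adjusted p = 0.035). The myostatin antagonist follistatin was lower (FST, 3.86 ± 1.298 TPM in SBMO and 7.14 ± 0.105 TPM in Ctrl larvae, log2(FC) -0.90, adjusted p = 0.0204), as was KLF15, a metabolic transcription factor (log2(FC) -0.86, adjusted p = 0.0258).

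Some genes of gluconeogenesis and of the fasting liver, not all of them enzymes, were lower in the injected groups. Of 23 tested, 10 were called lower in SBMO against Ctrl (median log2(FC) -0.67), 6 lower in SHMO against Ctrl (median -0.51) and 3 lower in SBMO against SHMO (median -0.26), and 0 were called higher in any of them. These are 43.5%, 26.1% and 13.04% of the list, beside 19.8%, 8.9% and 4.57% of all genes tested. The smallest adjusted p of the list in SBMO against Ctrl was that of the transcription factor HNF4A (log2(FC) -2.36, adjusted p = 0.00445 in limma). It had 0.863 ± 0.278 TPM in SBMO and 4.75 ± 0.63 TPM in Ctrl larvae. The kinase PDK4, which restrains pyruvate oxidation, had 7.55 ± 1.41 TPM in SBMO, 7.62 ± 2.48 TPM in SHMO and 18.5 ± 2.73 TPM in Ctrl larvae (log2(FC) -1.27 and -1.38 for SBMO and SHMO against Ctrl, adjusted p = 0.00946 and 0.00896). The gluconeogenic enzyme fbp1b had 24.3 ± 6.66 TPM in SBMO, 81.2 ± 38.5 TPM in SHMO and 115 ± 28.2 TPM in Ctrl larvae and was called in both SBMO comparisons (log2(FC) -2.23 from Ctrl and -1.59 from SHMO). TAT, an aminotransferase of the liver, was called lower in SHMO than in Ctrl larvae (10.5 ± 2.12 TPM in SHMO and 33.4 ± 6.63 TPM in Ctrl, log2(FC) -1.73, adjusted p = 0.00722). The fall of the liver markers in SBMO larvae stands beside these counts, and its part in them was not tested.

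In the insulin and IGF pathway the calls among 36 genes tested were 1 higher and 1 lower in SBMO against Ctrl, 3 lower in SHMO against Ctrl, and 2 higher and 1 lower in SBMO against SHMO. These are 5.56%, 8.33% and 8.33% of the list, beside 19.8%, 8.9% and 4.57% of all genes tested. The hormone gene ins was the lower one in both SBMO comparisons, with 1.69 ± 0.939 TPM in SBMO, 18.0 ± 18.5 TPM in SHMO and 45.5 ± 16.3 TPM in Ctrl larvae (log2(FC) -4.73 from Ctrl, adjusted p = 0.0047, and -2.88 from SHMO, adjusted p = 0.0346). It is also one of the 24 pancreas markers, which summed to 106 to 523 TPM in SBMO and 3992 to 7652 TPM in Ctrl pools. In SHMO replicates 1, 2 and 3 they summed to 2317, 188 and 154 TPM, so replicate 1 stood apart from the others. Of the pancreas markers 22 were tested, and 21 (95.5%) were called lower in SBMO against Ctrl, 14 (63.6%) in SHMO against Ctrl and 2 (9.09%) in SBMO against SHMO. The intestine markers had 17 tested, of which 16 (94.1%), 2 (11.8%) and 7 (41.2%) were called lower in the same 3 comparisons. Of all genes tested, 11.5%, 5.32% and 2.74% were called lower in them. Both genes named for EIF4EBP3, a repressor of translation that insulin signaling holds off, were lowest in SHMO larvae. EIF4EBP3 (ENSDARG00000041607) had 68.9 ± 8.77 TPM in SBMO, 45.2 ± 5.16 TPM in SHMO and 97.1 ± 12.8 TPM in Ctrl larvae, and eif4ebp3 (ENSDARG00000054916) had 42.8 ± 10.6, 24.4 ± 2.62 and 55.8 ± 3.60 TPM in the same groups. Each was called lower in SHMO against Ctrl (log2(FC) -1.17 and -1.26) and higher in SBMO against SHMO (log2(FC) 0.69 and 0.87). Of 7 other IGF binding proteins tested, 3 were called lower in SBMO against Ctrl, 2 lower in SHMO against Ctrl and 1 lower in SBMO against SHMO, and IGFBP2 was the last of these (20.6 ± 4.37 TPM in SBMO and 43.99 ± 10.4 TPM in SHMO larvae). With 7 genes these shares, 42.9%, 28.6% and 14.3%, rest on few genes.

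Among 23 other FoxO factors and genes known as FoxO targets in mammals, 1 was called higher and 5 lower in SHMO against Ctrl, and 3 higher and 2 lower in SBMO against SHMO, with medians of -0.44 and 0.33. These are 26.1% and 21.7% of the list, beside 8.9% and 4.57% of all genes tested. The transcription factor klf2a had 39.7 ± 13.3 TPM in SBMO, 11.9 ± 2.46 TPM in SHMO and 46.9 ± 10.997 TPM in Ctrl larvae and was called in both (log2(FC) -2.03 for SHMO against Ctrl and 1.77 for SBMO against SHMO). The growth arrest gene GADD45A (ENSDARG00000104571) was called lower in both injected groups, at 25.3 ± 5.81 TPM in SBMO and 15.6 ± 2.28 TPM in SHMO against 46.0 ± 5.64 TPM in Ctrl larvae. In the other direction, cdkn1a, an inhibitor of cyclin-dependent kinases, was at 5.28 ± 2.51 TPM in SBMO and 17.4 ± 3.18 TPM in SHMO larvae (log2(FC) -1.72 for SBMO against SHMO, adjusted p = 0.0268). Its mean in Ctrl larvae was 3.26 TPM, so this gene was highest in the SHMO larvae, where FBXO32 and trim63a were lowest. In SBMO against Ctrl the list had 0 called higher and 4 called lower (median 0.01), 17.4% beside 19.8% of all genes.

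Autophagy genes, which also serve protein breakdown in fasting muscle, showed 0 higher and 6 lower of 32 in SHMO against Ctrl (median -0.29), 2 higher and 0 lower in SBMO against SHMO (median 0.30) and 0 higher and 3 lower in SBMO against Ctrl (median -0.01). These are 18.8%, 6.25% and 9.38% of the list, beside 8.9%, 4.57% and 19.8% of all genes tested. The kinase ulk1a, which starts autophagosome formation, had 5.72 ± 1.43 TPM in SBMO, 3.33 ± 0.48 TPM in SHMO and 10.3 ± 1.91 TPM in Ctrl larvae, and was called lower in both injected groups (log2(FC) -0.83 for SBMO and -1.65 for SHMO against Ctrl). MAP1LC3B, which coats autophagosomes, had 87.7 ± 9.001 TPM in SBMO and 58.5 ± 4.85 TPM in SHMO larvae (log2(FC) 0.67, adjusted p = 0.0481).

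Glucocorticoid and nutrient stress genes were higher in SBMO than in SHMO larvae in 8 of 20 genes tested and lower in 2 (median 0.61). In SHMO against Ctrl 2 were called higher and 5 lower (median -0.42), and in SBMO against Ctrl 1 higher and 2 lower (median 0.30). The calls were 50% of the list in SBMO against SHMO, 35% in SHMO against Ctrl and 15% in SBMO against Ctrl, beside 4.57%, 8.9% and 19.8% of all genes tested. FKBP5, a co-chaperone of the glucocorticoid receptor that glucocorticoids induce in mammals, was the one higher than Ctrl in SBMO larvae, with 192 ± 40.5 TPM in SBMO, 78.8 ± 3.36 TPM in SHMO and 58.0 ± 8.77 TPM in Ctrl larvae (log2(FC) 1.73 for SBMO against Ctrl, adjusted p = 0.00377). HSD11B2, which inactivates cortisol, was lowest in SHMO larvae like FBXO32, with 12.2 ± 2.87 TPM in SBMO, 4.17 ± 1.06 TPM in SHMO and 19.7 ± 4.28 TPM in Ctrl larvae (log2(FC) -2.28 for SHMO against Ctrl and 1.61 for SBMO against SHMO). The 2 called higher in SHMO against Ctrl went the other way, and both are named PER1, which is also a clock gene. ENSDARG00000056885 had 1.04 ± 0.592 TPM in SBMO, 11.3 ± 1.56 TPM in SHMO and 0.567 ± 0.176 TPM in Ctrl larvae. ENSDARG00000012499 had 5.59 ± 2.91, 26.9 ± 2.90 and 4.31 ± 1.03 TPM in the same groups.

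Circadian clock genes differed between SHMO larvae and both other groups. Of 42 tested, 15 were called higher and 11 lower in SHMO against Ctrl, and 11 higher and 14 lower in SBMO against SHMO, and 3 higher and 2 lower in SBMO against Ctrl. These are 61.9%, 59.5% and 11.9% of the list, beside 8.9%, 4.57% and 19.8% of all genes tested. The nuclear receptor gene rorcb had 36.3 ± 10.3 TPM in SBMO, 2.54 ± 0.304 TPM in SHMO and 31.9 ± 3.64 TPM in Ctrl larvae. The clock output gene dbpb went the other way, with 3.21 ± 0.607 TPM in SBMO, 18.3 ± 3.33 TPM in SHMO and 1.98 ± 0.491 TPM in Ctrl larvae. No source used here gives the hour at which a pool was collected, and the part of clock time in the values of FBXO32 and trim63a was not tested.

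**Figure D4:**
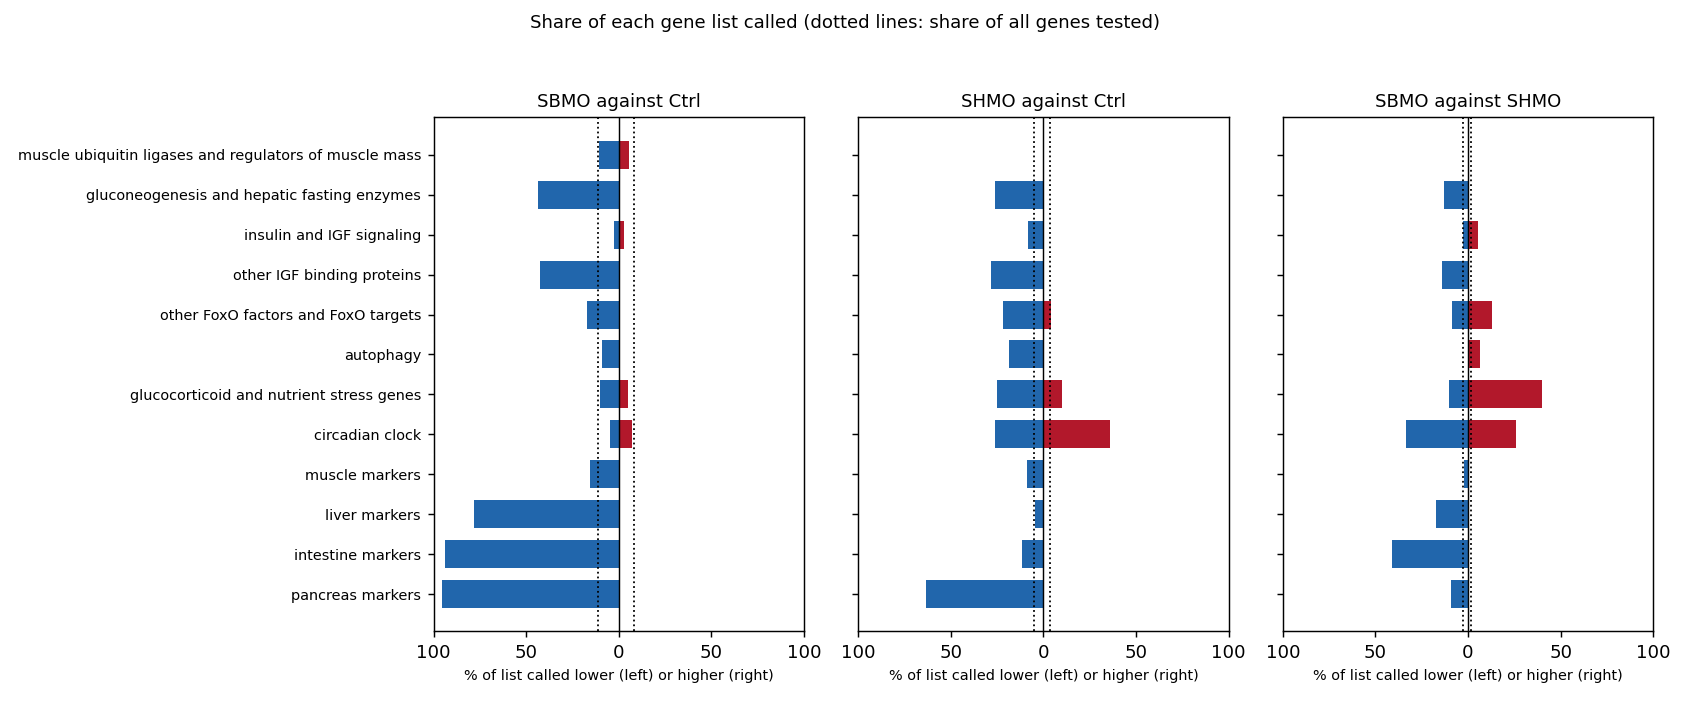
Percent of the tested genes of each of the 12 lists that were called lower (left of 0) or higher (right of 0) in the 3 comparisons, with dotted lines at the percent of all 19051 genes called in that direction. The list of muscle ubiquitin ligases has no bar in SHMO against Ctrl or in SBMO against SHMO, while the glucocorticoid and clock lists have bars past the dotted lines in both.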

How the data were processed

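The 9 samples are pools of whole larvae, which the labels number as biological replicates. The p-values set a difference against the spread between pools within groups, which was estimated once per gene for all 3 groups. The deposited values are TPM per Ensembl gene to 2 decimals. The authors aligned trimmed reads to GRCz11 with STAR, and RSEM is named in the submitters' processing notes; no source used here gives the annotation release or the strand setting. TPM keeps no depth, so the precision from counting is unknown, and no count test was run.

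Libraries were scaled by median ratios to the geometric mean of each gene (factors 0.930 to 1.08), and log2 was taken after adding 0.1. The genes whose mean reached 1 TPM entered 1 limma model (limma 3.58.1, R 4.3.3) of the 3 groups with a trended prior (4.14 prior and 6 residual degrees of freedom), adjusted by Benjamini-Hochberg over all 19051 genes within each comparison. The model was tested on simulated data with known changes. It recovered 44.8% to 51.2% of changes with a log2(FC) of 1 in size and 91.8% to 94% of those of 2. A gene with a change near 1 can therefore go uncalled. Each simulated gene had the same spread in all groups, whereas the 10 genes had a median SD of 0.60 in SBMO and 0.25 in Ctrl pools. The simulation also changed only 200 of 19051 genes, while 4.57% to 19.8% of genes were called in these data. Adjusted p values depend on that share. The recovered shares therefore need not hold for the 10 genes. Plots were made in matplotlib 3.10.9 (Python 3.11.15). The table of Ensembl names matched 29201 of 32520 genes. No sequence is shown, and 0 sample columns were left unused.

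The members and the 12 lists were chosen with earlier results of these data known. Genes named are the members, the 8 other tested genes with the highest Pearson correlation with FBXO32, and examples from up to 3 called genes per list and comparison with the smallest adjusted p. List symbols were matched with case, a paralog letter and a numeric suffix ignored, so 1 symbol could match several genes. Some symbols matched no gene, among them 7 of 51 in the clock list and 4 of 41 in the muscle marker list. The alternatives were other pseudocounts, filters and scalings, a robust prior, only 2 groups in the model, a replicate block and leaving out each pool; scaling by muscle or liver markers was added after the data were seen. The spread is shared by all groups in the model, also where 2 pools are left in a group.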

Additional observations from a re-analysis of the deposited data

How the results depend on the processing

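Values for single genes changed sign in 9 of 498 cases, 3 of them under scaling by markers and 6 under the other alternatives, all in uncalled differences, and 21 of the others lost a call and 10 gained one. FOXO1 (ENSDARG00000099555) in SBMO against SHMO was at 0.0015 with quantile normalization and at 0.015 without SHMO replicate 3 (-0.21 to 0.015 over all pools left out in turn). In SBMO against Ctrl, trim63a was at -0.28 without SBMO replicate 2 and -0.02 without Ctrl replicate 2 (-0.28 to 0.40 over all pools), and IGFBP1 was at -0.12 without SBMO replicate 2 and -0.39 without SBMO replicate 3 (-0.39 to 0.95 over all pools). Scaled by markers, igfbp1b in SBMO against Ctrl was at 0.23, PCK1 in SBMO against SHMO at 0.48 and trim63a in SBMO against Ctrl at -0.05. Such scaling shifts all genes of a library alike.

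Of the 8 genes tested, 2 were called in SBMO against Ctrl, 2 in SHMO against Ctrl and 3 in SBMO against SHMO. A mean of at least 5 TPM gave 1 in SHMO against Ctrl, since igfbp1b did not enter the model. With only the 2 groups in the model the count was 4 in SHMO against Ctrl and 1 in SBMO against SHMO. IGFBP1 and PCK1 were gained in SHMO against Ctrl, with standard errors of 0.18 and 0.31 in place of 0.54 and 0.43. Their log2(FC) hardly moved, at -1.18 and -1.19 beside -1.18 and -1.20 in the main model. The SBMO pools, which had the widest spread for both genes, were not in this model. In SBMO against SHMO, trim63b (adjusted p = 0.0731 in limma) and IRS2 ENSDARG00000037099 (adjusted p = 0.0664) were lost. Their standard errors were 0.24 and 0.22, beside 0.24 and 0.21 in the main model, and the cause of these losses was not tested. Leaving out single pools gave 0 to 5, 1 to 4 and 1 to 5 calls in the 3 comparisons. Without a filter on low values trim63b in SBMO against SHMO had an adjusted p of 0.0554.

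Over all genes, 3772, 1695 and 871 were called in SBMO against Ctrl, SHMO against Ctrl and SBMO against SHMO. These counts were 2299, 1032 and 599 at a mean of at least 5 TPM, where 11711 genes were tested, and 3382, 1895 and 286 with only 2 groups in the model. Leaving out single pools gave 1031 to 4262, 417 to 2597 and 189 to 1279.

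No pairing of the samples by replicate number was seen: of 9 pairs with the same number 3 had deviations correlated above 0.1 (range -0.26 to 0.15), and 3 correlated best with their own number. With 3 pools in a group the deviations depend on one another, so these correlations cannot decide whether the numbers pair the samples. With a replicate block 2, 2 and 2 of the 8 genes and 2902, 1111 and 601 of all genes were called, and IRS2 (ENSDARG00000037099) in SBMO against SHMO had an adjusted p of 0.0531.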
